A study of Sus scrofa with 24 samples.

Results

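The miR-99, miR-100 and miR-125 families were followed in cultured pig adipocytes. The members are every row of the deposited miRNA table named ssc-miR-99a, ssc-miR-99b, ssc-miR-100, ssc-miR-125a or ssc-miR-125b, whatever the arm, which gave 6 of 1587 entries: ssc-miR-100, ssc-miR-99a-5p, ssc-miR-99a-3p, ssc-miR-99b, ssc-miR-125a and ssc-miR-125b. Preadipocytes came from the back subcutaneous fat (BF) or the longissimus dorsi muscle (IMF, intramuscular) of 3 Yorkshire piglets that were 6 days old. Libraries of BF and IMF may thus come from the same animals. Day 0 cells were collected before induction. Cultures of both sources then got induction medium with IBMX, dexamethasone and insulin for 2 days, and medium with insulin alone for 2 more. Growth medium followed until day 8. Day 2 cells had thus had only the induction medium, and day 4 cells no growth medium after it, so the medium cannot be told apart from the day. Muscle was digested longer and with more collagenase than fat, which cannot be told apart from the source of the cells. Small RNA was sequenced on days 0, 2, 4 and 8, with 3 libraries in each of the 8 groups (BF-0d, BF-2d, BF-4d, BF-8d, IMF-0d, IMF-2d, IMF-4d and IMF-8d). The cells were primary cultures, and the sources do not tie a library to a piglet, so p-values measure the spread between libraries, which may be partly technical. A library held between 4954845 and 16863560 reads on miRNAs (median 10614384).

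These miRNAs belong to an old arrangement in animal genomes, in which a miR-99 or miR-100 hairpin lies upstream of a let-7 hairpin and a miR-125 hairpin. A mature miRNA guides Argonaute to messenger RNAs, mainly through its seed, the bases 2 to 8 from its 5′ end, so miRNAs with one seed share many predicted targets. The miR-99 and miR-100 family is known for targeting MTOR and IGF1R, which act in insulin signalling. The miR-125 family is the vertebrate counterpart of lin-4, which times development in worms.

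The mature sequences, 5′ to 3′ with the seed in capitals, show which members share a seed and how few bases separate them.
ssc-miR-100: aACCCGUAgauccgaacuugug
ssc-miR-99a-5p: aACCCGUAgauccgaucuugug
ssc-miR-99b: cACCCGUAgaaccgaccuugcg
ssc-miR-99a-3p: cAAGCUCGcuucuaugggucu
ssc-miR-125a: uCCCUGAGacccuuuaaccugug
ssc-miR-125b: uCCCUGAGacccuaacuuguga
The sequence of miR-125b was read at its RefSeq position in Sscrofa11.1, and the other 5 are those of the study's miRNA list. Among the 959 entries with a sequence, the seed ACCCGUA stood in 3, which were miR-100, miR-99a-5p and miR-99b. The seed CCCUGAG stood in miR-125a and miR-125b and in no other of those entries. With positions counted from 1 at the 5′ end, miR-99a-5p differs from miR-100 by 1 substitution, A16U. miR-99b differs from miR-100 by 4, namely A1C, U11A, A16C and U21C. The authors kept perfect matches to the genome, so whole reads of miR-100 and miR-99a-5p can be told apart by that 1 base, whereas reads that end before it cannot.

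In Sscrofa11.1 the members lie in 3 groups. MIR99B (chr6:58332211-58332280), MIRLET7E (chr6:58332042-58332121) and MIR125A (chr6:58331566-58331645) follow each other on the minus strand within 715 bases, with 89 and 396 bases between the hairpins, and RefSeq places them outside other genes. MIR100 (chr9:49157909-49157988), MIRLET7A-1 (chr9:49152586-49152665) and MIR125B-1 (chr9:49109435-49109514) span 48554 bases of the minus strand. MIR100 is intergenic, and MIR125B-1 lies in an intron of the long noncoding RNA gene LOC106504205. MIR99A (chr13:181302483-181302562) lies on the plus strand, 646 bases before MIRLET7C (chr13:181303209-181303302), in an intron of LOC106508546, listed by RefSeq as protein-coding. A further exact copy of mature miR-125b stands 46759 bases beyond the let-7c hairpin (chr13:181350062-181350083, plus strand), in an exon of LOC106508546. The entry of miR-125b therefore cannot tell the copies on chromosomes 9 and 13 apart. The let-7a sequence has 3 exact copies, and its level cannot be assigned to chromosome 9.

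**Figure D1:**
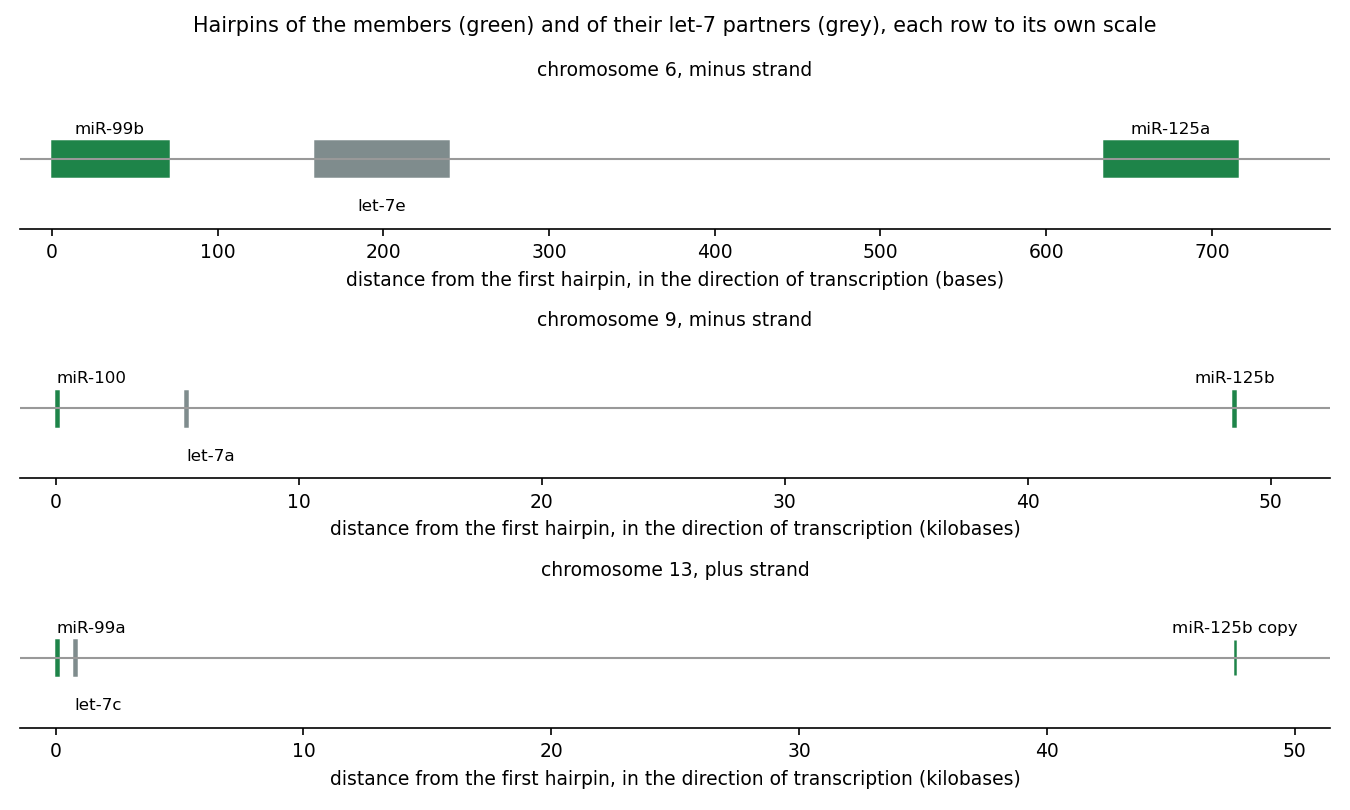
The 3 genomic groups drawn to scale along the direction of transcription, each row with its own axis (bases on chromosome 6, kilobases on chromosomes 9 and 13). Green bars are hairpins of the members (for chromosome 13 also the mature miR-125b copy) and grey bars let-7 hairpins. The group on chromosome 6 spans 715 bases, that on chromosome 9 spans 48554 bases.

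Values are in TPM as the authors named them, reads per 1000000 reads counted on miRNAs, with no correction for length. They are shares of one total, and in bulk cultures fewer cells of a type and less RNA per cell cannot be told apart. The most abundant entry, miR-21-5p, took between 27.9% and 60.5% of the reads of a library. Its share was 58.5%, 54.2% and 59.1% in the BF-0d libraries and 27.9%, 38.3% and 40.3% in the BF-8d libraries. Its part in the members' TPM was not tested. miR-100 was the most abundant member, with a mean of 24203 TPM over the 24 libraries and rank 5 of 1587 entries. miR-99b (2383 TPM, rank 23) and miR-99a-5p (2054 TPM, rank 24) came next, before miR-125b (708 TPM, rank 48) and miR-125a (323 TPM, rank 66). The other arm of the miR-99a hairpin, miR-99a-3p, averaged 1.94 TPM from 3 to 97 reads per library, so its values carry the largest counting error. Together the 6 members took between 2.05% and 4.83% of the reads of a library. That share was 3.14% ± 0.191 (SD, n = 3) in BF-0d and 2.08% ± 0.0434 (SD, n = 3) in BF-8d, against 3.12% ± 0.039 in IMF-0d and 2.56% ± 0.61 in IMF-8d.

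The mesenchymal miRNAs of a fixed list, 3 of 4 listed (miR-143-3p, miR-145-5p and miR-199a-5p), summed to between 51392 and 101291 TPM in every library. Most of that was miR-143-3p, at 44800 to 96700 TPM. The 6 blood cell miRNAs summed to at most 8.08 TPM, of which miR-486 (at most 6.63 TPM) and miR-142-3p (at most 2.33 TPM) were above 0 in every library, miR-451 was at 0 in 3 libraries, and miR-144 and miR-223 were at 0 in 22 each. Muscle miRNAs, 5 of 6 listed, summed to between 475 and 2361 TPM, nearly all of it miR-1. miR-133a-3p (7.53 to 30.2 TPM) and miR-499-5p (8.57 to 23.2 TPM) were above 0 in every library, while miR-206, which is specific to skeletal muscle, was at 0 in 13 libraries. Some of these lists moved with the days in BF, without overlap between BF-0d and BF-8d. The mesenchymal sum was 82935 to 91871 TPM and then 51392 to 82700 TPM, the muscle sum 818 to 1012 TPM and then 1324 to 2361 TPM, and the blood cell sum 1.19 to 1.99 TPM and then 3.71 to 4.44 TPM. In IMF the blood cell sum was also higher on day 8, 1.31 to 1.87 TPM in IMF-0d and 6.68 to 8.08 TPM in IMF-8d, while the mesenchymal and muscle sums of those groups overlapped. Their part in the members' changes was not tested. miR-378, which rises in fat cells, lay between 720 and 1480 TPM in BF and between 220 and 414 TPM in IMF libraries. The sources thus differed in this adipocyte miRNA at each day. Within each source its day 0 and day 8 values overlapped. They were 949 to 1360 TPM in BF-0d and 1012 to 1480 TPM in BF-8d, and lower in BF-2d (832 to 889 TPM) and BF-4d (720 to 897 TPM). In IMF they were 290 to 414 TPM on day 0 and 340 to 404 TPM on day 8. The endothelial miR-126-3p and miR-126-5p summed to 53.6 to 86.4 TPM in BF-4d against 18.7 to 30.9 TPM in IMF-4d, and to 51.2 to 90.9 TPM in BF-8d against 24.6 to 34.8 TPM in IMF-8d, and overlapped between the sources on days 0 and 2. The part of both in the differences described here was not tested.

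The question of the time course was how the members' levels moved as the cells differentiated. Between BF-0d and BF-8d, 4 members fell and miR-99b rose, and only miR-125a did not pass the test. Calls were made by limma on log2(TPM + 1), at an FDR (Benjamini-Hochberg) below 0.05 together with a change of more than 1.5-fold. Of the 430 entries tested, all with a mean of at least 1 TPM, 42.8% were called in this comparison, 14.9% as lower and 27.9% as higher on day 8. All 6 members were among the entries tested. Their median log2 fold change was -0.83, against 0.15 for all tested entries. Median-of-ratios scaling moved the latter to -0.00 and kept the 5 calls.

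miR-99a-5p fell the most among the abundant members. Its BF-0d libraries held 5045, 3165 and 4254 TPM and its BF-8d libraries 1091, 1279 and 1140 TPM. The groups lay far apart, with every day 0 library above every day 8 library, as in 53.7% of the tested entries for either direction, and the means differed 3.55-fold. On the log2 scale it fell by 1.80 (SE 0.20, limma adjusted p = 1.72e-06). The days between held intermediate values, 2651, 2443 and 1777 TPM in BF-2d and 2030, 1453 and 1505 TPM in BF-4d. Its partner arm miR-99a-3p went from 5.61, 3.38 and 5.75 TPM to 0.701, 0.484 and 0.605 TPM. The groups did not overlap, and it fell by 1.86 on the log2(TPM + 1) scale (SE 0.25, limma adjusted p = 1.49e-05), although its day 8 values rest on 3 to 9 reads per library. The added 1 TPM shrinks this value, which DESeq2 on whole reads put at -3.14, and the means differed 8.23-fold, so the arms did not fall by the same amount on every scale. Both arms come from one hairpin, so they are not independent members.

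miR-100 held 24232, 22712 and 25533 TPM in BF-0d and 14717, 15579 and 14432 TPM in BF-8d. The groups did not overlap, and it fell by 0.70 on the log2 scale (SE 0.18, limma adjusted p = 0.00515). Most of that difference lay after day 4, since the mean was 24479 ± 3257 TPM (SD, n = 3) in BF-2d and 22019 ± 3660 TPM in BF-4d. miR-125b, which lies beyond miR-100 on chromosome 9, went from 1045, 799 and 778 TPM to 377, 503 and 469 TPM. It fell by 0.95 on the log2 scale (SE 0.20, limma adjusted p = 0.00087), again without overlap, and in BF-4d it still averaged 737 ± 64.7 TPM (SD, n = 3).

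miR-99b moved the opposite way. Its libraries held 1483, 2138 and 1737 TPM in BF-0d, 1777, 2030 and 2395 TPM in BF-2d, 2513, 3221 and 2755 TPM in BF-4d and 4087, 3571 and 4050 TPM in BF-8d. The BF-8d libraries stood above all others of BF. The rise from day 0 to day 8 was 1.14 on the log2 scale (SE 0.19, limma adjusted p = 0.000157), 2.18-fold between the means. miR-125a, from the same 715 bases, held 517, 393 and 379 TPM in BF-0d and 266, 355 and 442 TPM in BF-8d. These groups overlapped, and the log2 difference of -0.29 (SE 0.22, limma adjusted p = 0.288) did not pass.

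**Figure D2:**
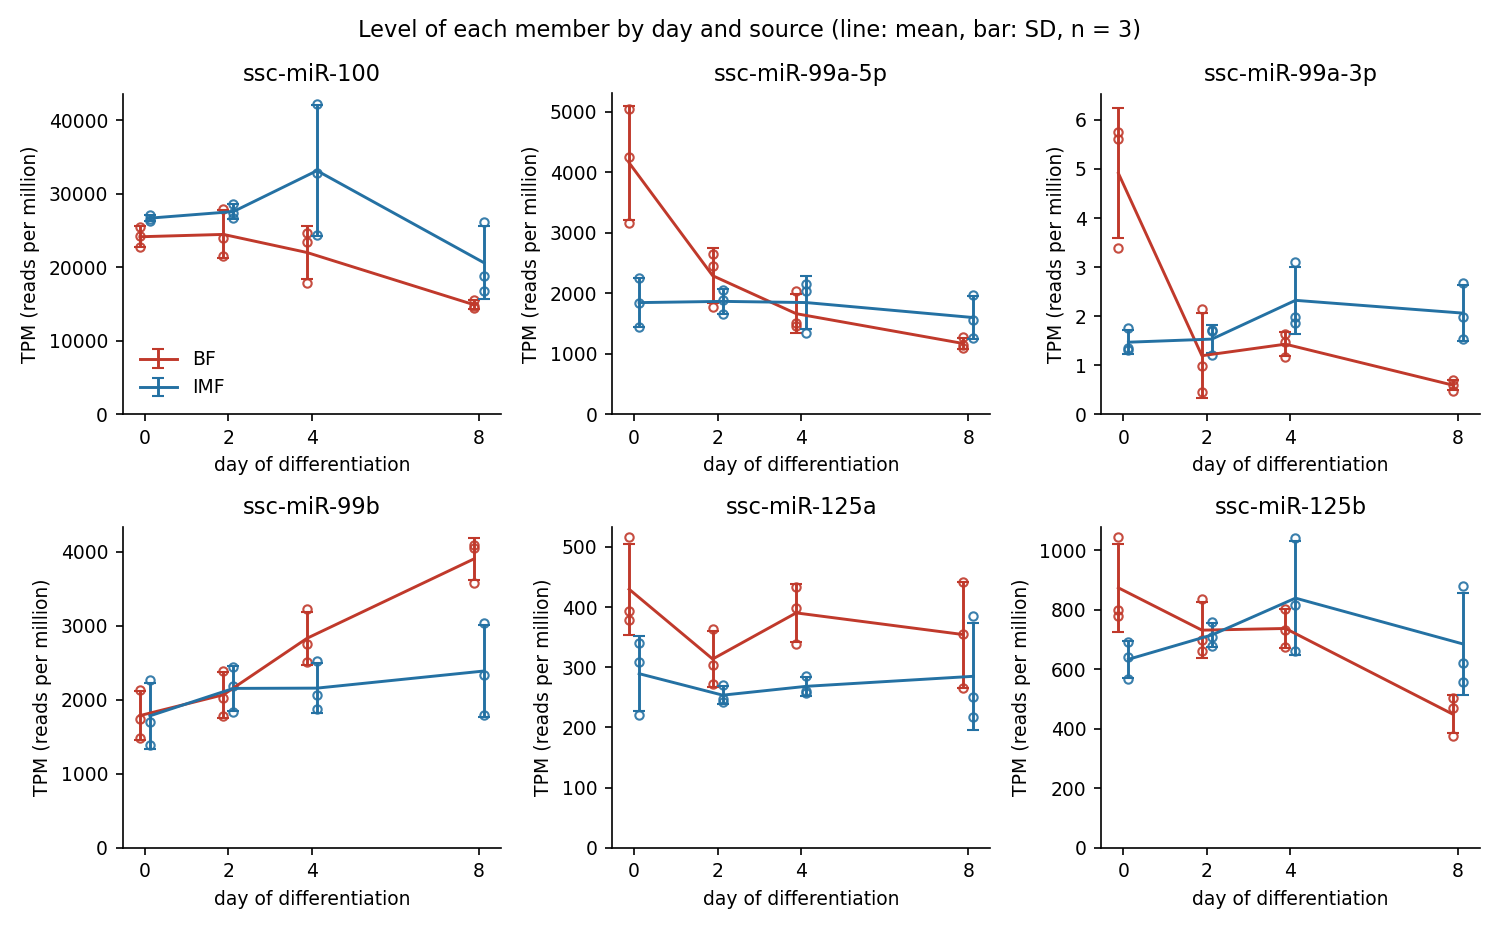
TPM (axis from 0) of each member against the day of differentiation, BF in red and IMF in blue, with each library as an open circle, lines through the means and bars of 1 SD (n = 3). In BF, miR-99a-5p goes from a mean of 4155 to 1170 TPM while miR-99b goes from 1786 to 3902 TPM, and the IMF lines of these members stay between 1599 and 2388 TPM.

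In IMF the same interval gave 0 called members by limma, where 30.5% of the tested entries were called. No member had an unadjusted p under 0.05 by limma, as 46.5% of the tested entries did. On whole reads edgeR and DESeq2 also called 0 members, against 34.2% and 31.6% of the tested entries. miR-99a-5p held 1840, 1440 and 2257 TPM in IMF-0d and 1973, 1558 and 1265 TPM in IMF-8d, which overlap (log2 difference -0.21, SE 0.22, limma adjusted p = 0.491). miR-99b held 1694, 2268 and 1386 TPM and then 3033, 1794 and 2338 TPM, which also overlap (0.42, SE 0.25, limma adjusted p = 0.237). miR-100 was the member whose libraries did not overlap (48.8% of the tested entries did not), with 27121, 26607 and 26354 TPM on day 0 and 26230, 16779 and 18849 TPM on day 8 (-0.40, SE 0.19, limma adjusted p = 0.147). Without replicate 1 of IMF-8d its log2 difference was -0.59, and it was called. The log2 differences of miR-99a-3p (0.30), miR-125a (-0.04) and miR-125b (0.09) did not pass.

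Whether the time course differed between the sources was tested by limma's F test of the interaction of source and day in all 24 libraries, which 31.6% of the tested entries passed. It passed for miR-99a-3p (limma adjusted p = 0.00025), miR-99a-5p (limma adjusted p = 0.00153) and miR-125b (limma adjusted p = 0.0285). Taken alone, the contrast of day 8 minus day 0 between IMF and BF passed for 20.7% of the tested entries. It was higher in IMF than in BF by 1.60 on the log2 scale for miR-99a-5p (SE 0.31) and by 1.04 for miR-125b (SE 0.27), with limma adjusted p-values of 0.00062 and 0.00771. The call of miR-125b was lost without any one replicate number (adjusted p of 0.342, 0.129 and 0.0531 without replicates 1, 2 and 3) or with no filter (0.0748) and that of miR-99a-5p without replicate 1 (adjusted p = 0.0583). For miR-99b the test gave an adjusted p of 0.101 and for miR-100 of 0.427, so limma did not show a difference in their time courses. DESeq2 on whole reads passed miR-100 (adjusted p = 0.0382). miR-125a had an adjusted p of 0.789.

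The adjacent days asked when the members moved. By limma 0 of 6 members were called in each of the 6 steps. The share of all tested entries called was 4.19% from BF-0d to BF-2d, 6.05% from BF-2d to BF-4d, 3.02% from BF-4d to BF-8d, 0% from IMF-0d to IMF-2d and from IMF-2d to IMF-4d, and 13.0% from IMF-4d to IMF-8d. These shares rest on counts that moved by more than 1.5 times with the settings and with single libraries, for example from 13 entries to 0 for BF-4d to BF-8d without replicate 2 of BF-4d. In that order, the members with an unadjusted p under 0.05 numbered 3, 1, 5, 0, 0 and 1, where 24.2%, 27.2%, 23.0%, 15.8%, 15.1% and 32.3% of the tested entries had one. From BF-0d to BF-2d, edgeR and DESeq2 each called 13.0% of the tested entries and 2 members, miR-99a-5p (limma log2 difference -0.85, SE 0.22, adjusted p = 0.0906) and miR-99a-3p (-1.48, SE 0.32, adjusted p = 0.0615). From BF-4d to BF-8d DESeq2 called 1 member (5.58% of the tested entries) and edgeR 0 (3.02%). The one called was miR-125b, which limma put at -0.72 (SE 0.21, adjusted p = 0.0824). From BF-2d to BF-4d, IMF-0d to IMF-2d and IMF-2d to IMF-4d, edgeR and DESeq2 called 0 members. Of the tested entries edgeR called 3.95%, 1.63% and 0.233% in these steps, and DESeq2 12.6%, 2.09% and 0.465%.

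miR-100 reached its highest values in IMF-4d, with 32810, 24397 and 42253 TPM. These libraries were the most scattered of any group for this miRNA and overlapped those of IMF-8d. The log2 difference from IMF-4d to IMF-8d was -0.68 (SE 0.26, limma adjusted p = 0.126), which edgeR and DESeq2 both called, as they did 15.1% and 14.4% of the tested entries.

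The sources were next compared on each day. On day 0, 2 members were called, both arms of miR-99a, and both were lower in IMF. In this comparison 29.3% of the tested entries were called, 15.8% as lower in IMF, and median-of-ratios scaling, which moved the median of all entries from -0.13 to -0.01, kept both calls. miR-99a-5p held 5045, 3165 and 4254 TPM in BF-0d and 1840, 1440 and 2257 TPM in IMF-0d, without overlap (log2 difference -1.17, SE 0.24, limma adjusted p = 0.0164). Its call was lost without replicate 3 of BF-0d (adjusted p = 0.0587), without replicate 1 of IMF-0d (adjusted p = 0.05) and with no filter on low values (adjusted p = 0.0778). miR-99a-3p held 1.31, 1.75 and 1.35 TPM in IMF-0d, against 5.61, 3.38 and 5.75 TPM in BF-0d (-1.24, SE 0.20, limma adjusted p = 0.00842). miR-99b was at nearly the same mean in BF-0d (1786 ± 331 TPM) and IMF-0d (1783 ± 448 TPM, SD, n = 3). miR-125a (-0.58, SE 0.21, limma adjusted p = 0.0901), miR-125b (-0.46, SE 0.15, limma adjusted p = 0.0639) and miR-100 (0.15, SE 0.09, limma adjusted p = 0.261) did not pass, although their libraries did not overlap. Groups without overlap were common here, at 47.7% of the tested entries.

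On day 2, 0 members were called by limma, edgeR and DESeq2, which called 12.3%, 15.8% and 15.1% of the tested entries. No member had an unadjusted p under 0.05, as 29.1% of the tested entries did. The share called by limma was 53 entries, and it was 2 without replicate 1 or 3 of IMF-2d and 85 without replicate 3 of BF-2d. On day 4, 0 members were called by limma, where 36.3% of the tested entries were called, and 2 had an unadjusted p under 0.05, as did 44.9% of the tested entries. These were miR-100 (log2 difference 0.57, SE 0.21, limma adjusted p = 0.0536) and miR-125a (-0.53, SE 0.22, limma adjusted p = 0.0709). edgeR and DESeq2 each called 2 members on day 4, miR-100 and miR-125b, and 27.0% and 29.5% of the tested entries. Limma put miR-125b at 0.17 in TPM (SE 0.23, adjusted p = 0.617) and at 0.59 after median-of-ratios scaling (adjusted p = 0.0434). Scaling mattered most on that day. The median log2 difference of all tested entries was -0.34 in TPM and -0.00 after median-of-ratios scaling, which raised miR-100 to 1.0 (adjusted p = 0.00304) and put miR-125a at -0.11 (adjusted p = 0.73).

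On day 8, 3 members were called, where 37.2% of the tested entries were called. miR-99a-3p and miR-125b were higher in IMF, as were 12.1% of the tested entries, and miR-99b was lower, as were 25.1%. The libraries of the sources did not overlap for 51.2% of the tested entries. miR-99a-3p held 0.701, 0.484 and 0.605 TPM in BF-8d and 1.98, 2.67 and 1.54 TPM in IMF-8d (log2 difference 0.93, SE 0.22, limma adjusted p = 0.00446). Here too the added 1 TPM shrinks the value, and edgeR on whole reads put miR-99a-3p at 2.05. miR-125b held 377, 503 and 469 TPM in BF-8d and 880, 620 and 557 TPM in IMF-8d, without overlap (0.59, SE 0.19, limma adjusted p = 0.0269). Its call was lost without replicate 1 of IMF-8d (0.40, adjusted p = 0.112), without replicates 1 or 3 of BF-8d (0.47 and 0.62) and with no filter (adjusted p = 0.221). The libraries of miR-99b did not overlap, with 4087, 3571 and 4050 TPM in BF-8d and 3033, 1794 and 2338 TPM in IMF-8d (-0.74, SE 0.20, limma adjusted p = 0.00873).

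The day 8 result of miR-99b depended on the scaling and on other settings. The median of all tested entries was -0.28 in TPM and -0.03 after median-of-ratios scaling, under which miR-99b stood at -0.41 (adjusted p = 0.0819). edgeR (-0.38, adjusted p = 0.118) and DESeq2 (-0.44, adjusted p = 0.0686) did not call it, nor was it called by limma without replicate 2 of IMF-8d (-0.55, adjusted p = 0.0775) or with no filter on low values (-0.74, adjusted p = 0.119). The same scaling called miR-100 (0.77, adjusted p = 0.00538, against 0.44 with SE 0.21 and adjusted p = 0.106 in TPM) and miR-99a-5p (0.75, adjusted p = 0.00217, against 0.43 with SE 0.18 and adjusted p = 0.078). miR-125a did not pass (-0.33, SE 0.23, limma adjusted p = 0.277).

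**Figure D3:**
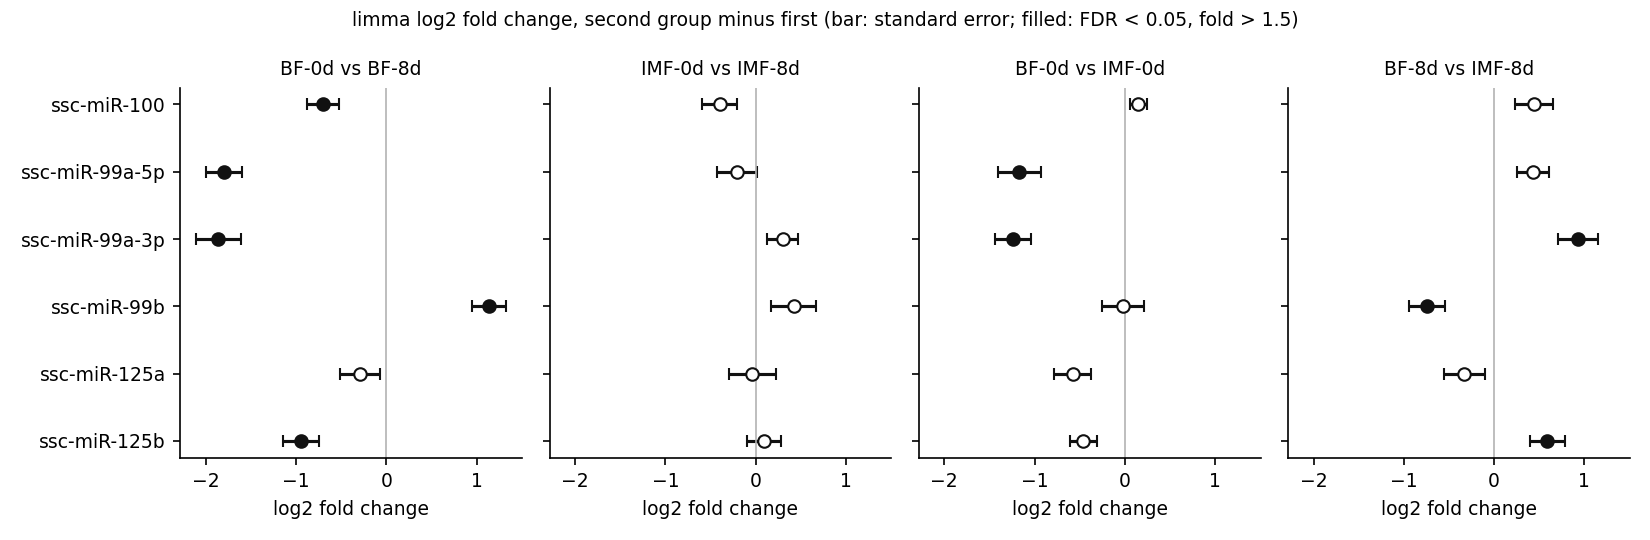
limma log2 fold change on log2(TPM + 1), second group minus first, with bars of 1 standard error (3 libraries a group). Filled points passed FDR under 0.05 and a fold change above 1.5. In BF from day 0 to day 8 the points run from -1.86 for miR-99a-3p to 1.14 for miR-99b, whereas in IMF no point is filled.

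Ratios of 2 miRNAs within a library do not depend on the library total. In all, 10 ratios were computed, each tested by exact two-sided permutation for day 8 against day 0 within the sources and for IMF against BF within the days, with Benjamini-Hochberg values over the 10. Within one source, 3 against 3 libraries cannot give an exact p below 0.1.

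Members of the chromosome 6 group did not keep one proportion. There were 4.30 ± 1.31 reads of miR-99b per read of miR-125a in BF-0d and 11.5 ± 3.35 in BF-8d (SD, n = 3), and no BF-0d library reached the lowest of BF-8d. In IMF the ratio was 6.61 ± 3.23 on day 0 and 8.57 ± 1.88 on day 8, with overlap. Over both sources the log2 ratio was higher on day 8 by 0.95 (exact permutation p = 0.015, adjusted p = 0.0375). The ratio of miR-99b to let-7e, the hairpin between them, was 2.07 ± 0.153 in BF-0d and 4.39 ± 0.462 in BF-8d, and 2.75 ± 0.17 and 2.87 ± 0.515 in IMF. Over both sources that difference of 0.56 did not pass (exact permutation adjusted p = 0.08). The ratio of miR-125a to let-7e was lower in IMF than in BF by a log2 difference of -0.36 (exact permutation adjusted p = 0.0424), a call lost without replicate 2 (adjusted p = 0.176) or 3 (adjusted p = 0.152), and between days its difference of -0.38 did not pass (exact permutation adjusted p = 0.169).

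On chromosome 13, miR-99a-5p also moved against let-7c, its neighbour at 646 bases. In BF the ratio was 1.96 ± 0.483 on day 0 and 0.882 ± 0.104 on day 8 (SD, n = 3), and in IMF it was 1.95 ± 0.408 and 1.36 ± 0.0866. It was lower on day 8 by a log2 difference of -0.82 (exact permutation adjusted p = 0.025). Over the 4 days it was higher in IMF than in BF by 0.55 (exact permutation adjusted p = 0.00379), although the sources stood at the same ratio on day 0. That call was lost without replicate 3 (exact permutation adjusted p = 0.0502). let-7c itself was lower in IMF-0d than in BF-0d, by the same -1.17 on the log2 scale (SE 0.13, limma adjusted p = 0.00264) as miR-99a-5p. The 5p arm of miR-99a outnumbered the 3p arm 859-fold ± 105 in BF-0d and 2028-fold ± 558 in BF-8d, against 1299-fold ± 434 and 800-fold ± 207 in IMF. Averaged over the 4 days, the log2 ratio was lower in IMF, at -0.56 (exact permutation adjusted p = 0.0448), but on day 0 it was higher in IMF, at 0.54. The call was lost without any one replicate number (exact permutation adjusted p of 0.143, 0.176 and 0.0977 without replicates 1, 2 and 3). Between days the ratio did not pass (exact permutation adjusted p = 0.485).

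Among the 3 miRNAs with the seed ACCCGUA, the order of the 2 less abundant ones reversed in BF. miR-99b stood at 0.459 ± 0.196 reads per read of miR-99a-5p in BF-0d and at 3.36 ± 0.504 in BF-8d (SD, n = 3), 7.71-fold higher by the mean log2 ratio. In IMF the ratio was 1.04 ± 0.491 on day 0 and 1.51 ± 0.349 on day 8, with overlap. Over both sources it was higher on day 8 by 1.79 on the log2 scale (exact permutation adjusted p = 0.0375). The ratio of miR-99b to miR-100 was higher on day 8 by 1.33 (exact permutation adjusted p = 0.025), without overlap between day 0 and day 8 in either source, and over the 4 days lower in IMF by a log2 difference of -0.61 (exact permutation adjusted p = 0.00379). By day that difference was -0.16 and -0.12 on days 0 and 2, with overlap, and -0.96 and -1.18 on days 4 and 8, without. The call was lost without replicate 3 (exact permutation adjusted p = 0.0502). Over the 4 days the ratio of miR-99a-5p to miR-100 was lower in IMF, at -0.55 (exact permutation adjusted p = 0.00463). By day that difference was -1.31 on day 0, without overlap, and -0.46, -0.43 and -0.01 on days 2, 4 and 8, with overlap. Between day 0 and day 8 over both sources this ratio did not pass (-0.46, exact permutation adjusted p = 0.164), with -1.11 in BF, without overlap, and 0.19 in IMF, with overlap. The call between the sources was also lost without replicate 3 (exact permutation adjusted p = 0.0502).

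The miR-125 pair shares the seed CCCUGAG. miR-125b held 2.04 ± 0.0177 reads per read of miR-125a in BF-0d and 1.30 ± 0.205 in BF-8d, against 2.23 ± 0.306 in IMF-0d and 2.43 ± 0.138 in IMF-8d (SD, n = 3). Over the 4 days the ratio was higher in IMF by 0.50 on the log2 scale (exact permutation p = 3.75e-05, adjusted p = 0.000375), and on day 8 the sources did not overlap. Between day 0 and day 8 over both sources it did not pass (-0.27, exact permutation adjusted p = 0.164), with -0.66 in BF, without overlap, and 0.13 in IMF, with overlap. Averaged over the days, the log2 ratio of miR-125b to miR-100 was lower in IMF, at -0.27 (exact permutation adjusted p = 0.0174), but on day 8 it was higher in IMF, at 0.15. The call was lost without replicate 2 (adjusted p = 0.0988) or 3 (adjusted p = 0.0977) in the same exact permutation test. Between days the pooled difference was 0.11 (exact permutation adjusted p = 0.485), which averages -0.26 in BF, with overlap, and 0.49 in IMF, without.

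**Figure D4:**
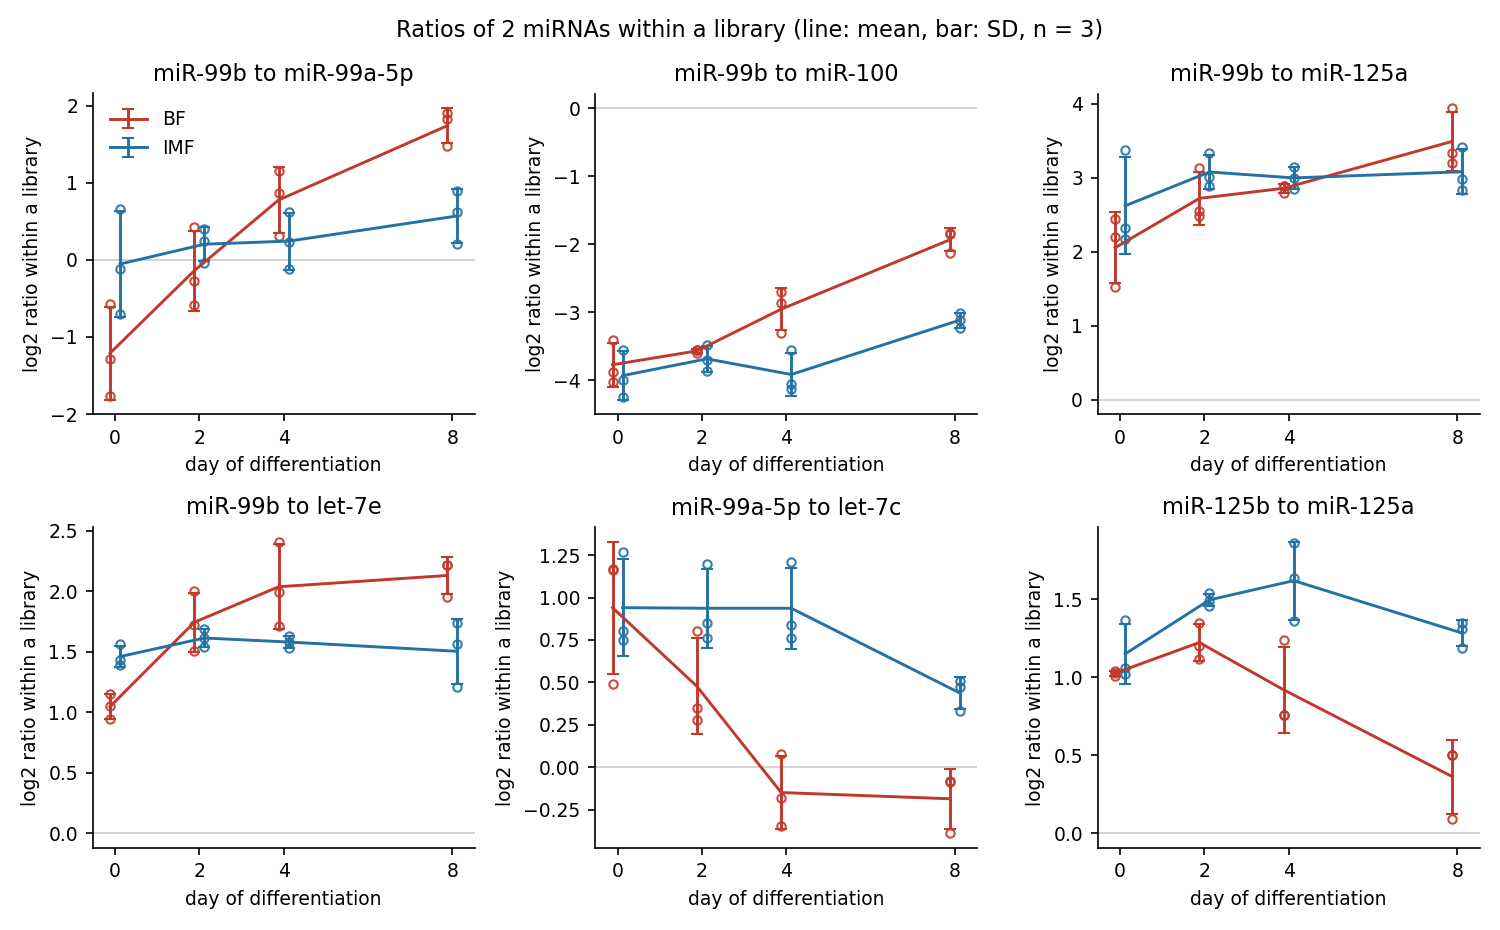
log2 ratio of 2 miRNAs within a library against the day of differentiation, BF in red and IMF in blue, each library as an open circle, with means and bars of 1 SD (n = 3). The mean log2 ratio of miR-99b to miR-99a-5p goes from -1.21 to 1.74 in BF and from -0.06 to 0.57 in IMF. That of miR-125b to miR-125a goes from 1.03 to 0.36 in BF and from 1.15 to 1.28 in IMF.

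The summed level of the 3 miRNAs with the seed ACCCGUA was 30100 ± 1846 TPM in BF-0d and 19982 ± 411 TPM in BF-8d, and 30323 ± 329 TPM in IMF-0d and 24606 ± 5857 TPM in IMF-8d (SD, n = 3). Over both sources it was lower on day 8 by a log2 difference of -0.46 (exact permutation p = 0.02), and over the 4 days it was higher in IMF by 0.22 (exact permutation p = 0.00931). On day 0 the difference between the sources was 0.01, and the call was lost without replicate 1 (exact permutation p = 0.0741). miR-100 made up between 74.6% (BF-8d) and 89% (IMF-4d) of the group mean. In BF the share of miR-99a-5p was 13.7% ± 2.56 on day 0 and 5.85% ± 0.39 on day 8, while that of miR-99b was 5.99% ± 1.47 and 19.6% ± 1.8. In IMF the share of miR-99b was 5.88% ± 1.46 and 9.68% ± 0.751 on the same days.

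**Figure D5:**
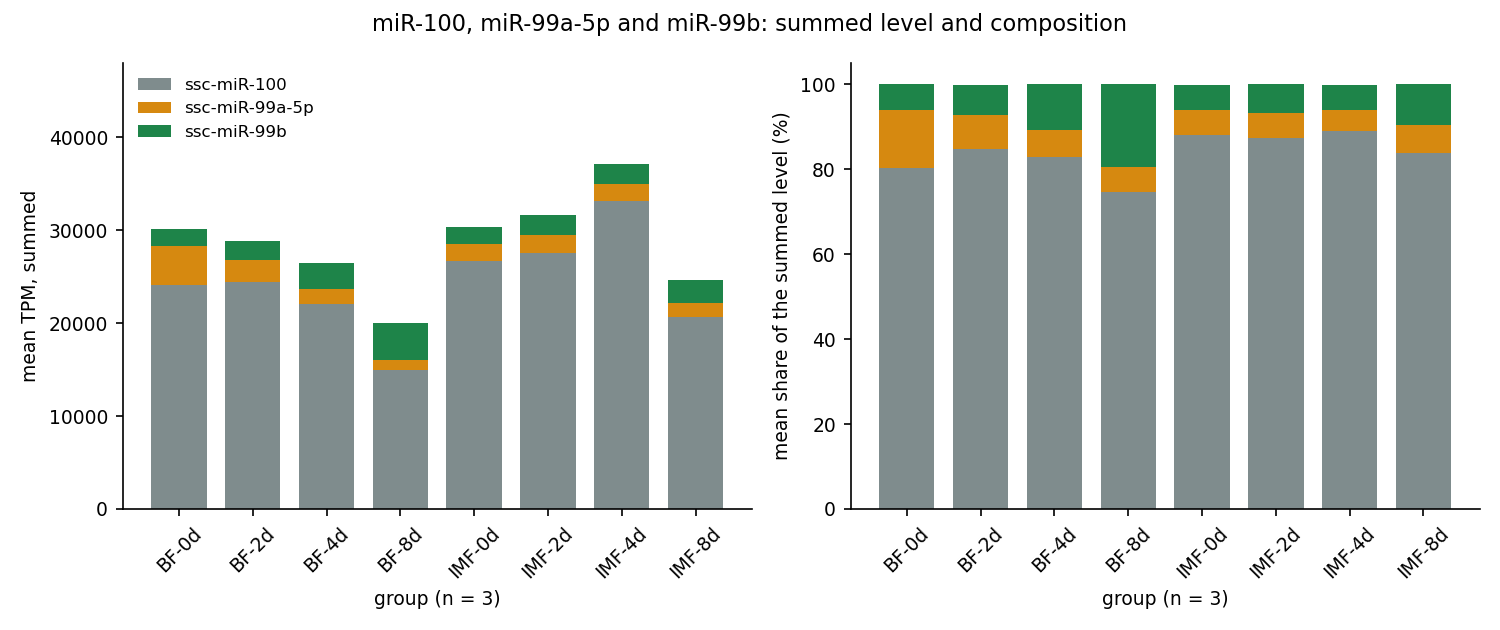
Mean TPM (left) and mean share in percent (right) of miR-100, miR-99a-5p and miR-99b, stacked, in the 8 groups (3 libraries each). The left bars are lowest in BF-8d, at 19982 TPM, where the share of miR-99b is highest at 19.6%.

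Ordered by group mean, miR-99a-5p was highest in BF-0d, whose libraries did not overlap those of the next group, BF-2d. From BF-2d down to BF-8d each group overlapped its neighbour. miR-99b was highest in BF-8d, apart from the next group BF-4d, and miR-100 and miR-125b were lowest in BF-8d, apart from the group above. The 8 groups of miR-125a overlapped each of their neighbours, from 430 TPM in BF-0d to 254 TPM in IMF-2d.

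Pearson's r of log2(TPM + 1) over the 24 libraries describes which members moved alike, with the libraries sharing groups and totals. It was 0.75 between miR-100 and miR-125b, 0.72 between miR-99a-5p and miR-125b, -0.66 between miR-99a-5p and miR-99b and 0.13 between miR-99b and miR-125a. Outside the members, the known miRNAs most like miR-99a-5p were miR-10383 (0.90) and miR-145-3p (0.87), and those most like miR-99b were miR-769-5p (0.86) and miR-221-5p (0.81). miR-125a was most like miR-140-5p (0.88) and miR-103 (0.87), and miR-100 was most like miR-6782-3p (0.75) and miR-7857-3p (0.74). For miR-125b these were miR-145-5p (0.77) and miR-676-3p (0.76). Of those named, miR-676-3p averaged only 3.48 TPM and miR-10383 only 1.01 TPM, near the minimum of 1 TPM for a test.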

How the data were processed

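The authors cleaned 50 nt single-end reads, mapped them to Sscrofa11.1 by Bowtie with perfect matches, removed other annotated small RNAs and assigned known miRNAs through miRBase and new ones with miRDeep2. The deposited values are RPM, which the authors named TPM, and all 38088 lie within 0.01 read of a whole number, so reads were recovered for the count tests. Groups follow the labels. limma 3.58.1 (R 4.3.3) with trend was fitted to log2(TPM + 1) of the groups compared, over the 430 entries averaging 1 TPM or more. edgeR 4.0.16 and DESeq2 1.42.0 ran on whole reads as alternatives. The fits were tested on simulated data. Within groups, libraries differed beyond counting error (lowest chi-square per degree of freedom 49.2). Counting error alone sets the floor of 3 reads, between 0.178 and 0.605 TPM. Same-numbered libraries deviated together in 1 of 12 comparisons, BF-0d against IMF-0d (r of 0.19, 0.51 and 0.21), a hint from the data and not from the labels. The rule for names took all members, their let-7 partners, the 2 known miRNAs most like each member of at least 100 TPM, and marker lists. Members and lists were chosen with earlier results of these data known. Python 3.11.15, NumPy 2.4.6, pandas 2.3.3 and Matplotlib 3.10.9 were used.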

Additional observations from a re-analysis of the deposited data

Results flagged for a closer look

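The time courses of 3 members differed between BF and IMF by the limma F test of the interaction. They were miR-99a-3p (adjusted p = 0.00025), miR-99a-5p (adjusted p = 0.00153) and miR-125b (adjusted p = 0.0285), and 31.6% of all tested entries passed the same test. In each of them the day 8 level relative to day 0 was higher in IMF than in BF, by 2.16 (SE 0.35), 1.60 (SE 0.31) and 1.04 (SE 0.27) on the log2 scale. The call of miR-125b was lost without any one replicate number or with no filter, and that of miR-99a-5p without replicate 1. Both arms of miR-99a come from one hairpin and are not independent. Groups of 3 libraries were not tested for single libraries that stand apart.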

How the results depend on the processing

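The 5 calls between BF-0d and BF-8d were made under every alternative in which the member was tested, including each left-out library. The replicate block kept the number of members called at 5 there, 2 for BF-0d against IMF-0d, 3 for BF-8d against IMF-8d and 3 for the interaction, and changed no other call of a member. The number of members called moved as follows. From BF-0d to BF-2d it was 0, and 2 with one fit of all 24 libraries, median-of-ratios scaling, edgeR, DESeq2 or entries without reads in both groups left out (an alternative chosen after seeing the data), and 1 with a mean of at least 10 TPM. From BF-4d to BF-8d it was 0, and 1 with one fit, median-of-ratios scaling or DESeq2. From IMF-4d to IMF-8d it was 0, and 1 with one fit, a mean of at least 10 TPM, median-of-ratios scaling, edgeR, DESeq2 or entries without reads left out. For BF-0d against IMF-0d it was 2, and 1 with no filter or a mean of at least 10 TPM, which removes miR-99a-3p from the test. For BF-4d against IMF-4d it was 0, and 2 with median-of-ratios scaling, edgeR or DESeq2. For BF-8d against IMF-8d it was 3, and 1 with no filter, 2 with a mean of at least 10 TPM and 4 with median-of-ratios scaling, edgeR or DESeq2.

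Without single libraries the number of members called ranged from 0 to 1 for IMF-0d against IMF-8d and for BF-4d against IMF-4d, from 1 to 2 for BF-0d against IMF-0d, and from 2 to 4 for BF-8d against IMF-8d (2 without replicate 1 or 3 of BF-8d or replicate 1 or 2 of IMF-8d, 4 without replicate 3 of IMF-8d). Without one replicate number of every group it ranged from 1 to 2 for the interaction. Without single libraries the log2 difference of miR-125a from IMF-0d to IMF-8d ranged from -0.28 to 0.13 and that of miR-125b from -0.10 to 0.23, with -0.00 by edgeR and -0.01 by DESeq2. That of miR-125a between BF-8d and IMF-8d turned to 0.02 by edgeR, and its interaction contrast ranged from -0.19 to 0.74 without one replicate number of every group. DESeq2 also passed miR-100 for the interaction (adjusted p = 0.0382).

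Without one replicate number the exact permutation test between days of a ratio or sum cannot go below p = 0.0556, so no call could be kept. The log2 differences between day 8 and day 0 ranged from 0.65 to 1.33 for miR-99b to miR-125a, from -1.01 to -0.60 for miR-99a-5p to let-7c, from 1.17 to 1.59 for miR-99b to miR-100, from 1.5 to 2.28 for miR-99b to miR-99a-5p and from -0.54 to -0.41 for the summed level. Between IMF and BF they ranged from -0.46 to -0.30 for miR-125a to let-7e, from 0.50 to 0.61 for miR-99a-5p to let-7c, from -0.63 to -0.46 for miR-99a-5p to miR-99a-3p, from -0.62 to -0.48 for miR-99a-5p to miR-100, from -0.65 to -0.55 for miR-99b to miR-100, from -0.14 to 0.07 for miR-99b to miR-99a-5p, from -0.27 to -0.26 for miR-125b to miR-100 and from 0.18 to 0.30 for the summed level. Of these, miR-99b to miR-99a-5p was not called with all libraries, and each other call was lost without at least one replicate number. The call of miR-125b to miR-125a was kept without each. With a pseudocount of 1 TPM the day difference of miR-99a-5p to miR-99a-3p turned from 0.27 to -0.22, because the 3p arm is near 1 TPM. Calls over all entries ranged over the alternatives from 105 to 188 (184 as reported) for BF-0d against BF-8d, from 70 to 147 (131) for IMF-0d against IMF-8d, from 76 to 138 (126) for BF-0d against IMF-0d, from 2 to 85 (53) for BF-2d against IMF-2d, from 50 to 183 (156) for BF-4d against IMF-4d and from 101 to 194 (160) for BF-8d against IMF-8d. Between adjacent days they ranged from 0 to 56 (18) for BF-0d to BF-2d, from 0 to 104 (26) for BF-2d to BF-4d, from 0 to 81 (13) for BF-4d to BF-8d, from 0 to 12 (0) for IMF-0d to IMF-2d, from 0 to 2 (0) for IMF-2d to IMF-4d and from 28 to 82 (56) for IMF-4d to IMF-8d. The cause of these changes was not tested. Low read numbers limit miR-99a-3p.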
